A study of Drosophila melanogaster with 2 samples.

Results

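The Hox and segmentation genes of Drosophila melanogaster were described here by where Hand-GFP chromatin immunoprecipitation peaks lay around them. The set holds 35 of 13945 protein-coding genes on the 6 main chromosome arms. It comprises 8 Hox genes, 9 maternal and gap genes, 5 head gap and sloppy paired genes, 9 pair-rule and odd family genes and 4 segment polarity genes. They were listed by name for their place in the segmentation hierarchy and matched by symbol to the Ensembl dm6 annotation, and all 35 were found. The samples were whole embryos of mixed sex, 6 to 24 hours old, from a transgenic fly line that stably expresses the heart and visceral muscle factor Hand with a green fluorescent protein (GFP) at its C-terminal end. Chromatin was sonicated and immunoprecipitated with an antibody against GFP. There was 1 group, with 2 biological replicates that the labels number 2 and 3, and no untagged or control library was among the samples. The labels name the strain Hand-GFP, with an insertion targeting D. melanogaster Hand. They do not give the promoter that drives the transgene or say whether the line keeps its own Hand gene. Read depth is unknown. Whole embryos mix all cell types, so a peak does not say in which cells it arose.

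Segmentation genes divide the fly embryo along its long axis in steps. Maternal and gap factors such as Bicoid and Hunchback set broad domains, pair-rule factors such as Even-skipped and Paired turn these into stripes, and segment polarity factors such as Engrailed fix the borders of each segment. Hox factors, encoded in the Antennapedia and bithorax complexes, then give the segments their identity, and in the fly heart they also set which stretch of the tube becomes aorta or heart proper. Odd-skipped and Even-skipped mark pericardial cells beside that tube. Hox genes and many segmentation genes are also well-known targets of Polycomb group proteins, which keep genes off in the cells that do not use them.

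Each deposited peak has a summit, a signal value that is the authors' peak caller's own score against a control, and a rank by that signal. The thresholded list kept 3310 peaks as reproducible, and these were the 3310 strongest of a pooled list of 30000. Each replicate had its own list of 30000 peaks, in which most entries are weak. Signal is not rescaled between lists, so replicate signals are given with their rank among that replicate's 30000 peaks. A gene was counted as having a peak if it held a summit between its ends or in the 2 kb on either side. With 1 group and 2 replicates there is no contrast to test, and counts are set beside the same count over all genes.

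Of the 35 genes, 4 (11.4%) had a thresholded summit, against 25.7% of all protein-coding genes. Over all gene lengths together, that difference depends on the 2 kb margin. In gene bodies alone the same 4 genes stood against 10.2% of all genes. By nearest start site to a thresholded summit it was 5 genes (14.3%), against 16.0%. Counts by length class are given below. The 4 genes were the gap gene hb, the odd family gene bowl and the Hox genes Abd-B and Antp. Together they held 9 summits, of which bowl had 4, Antp 3, and hb and Abd-B 1 each. The sequences under the strongest peak of each of these genes, and under 1 further Antp peak that both replicates held, are shown first. The last window belongs to a strong peak of the bithorax complex that lies in none of the genes. Each is the summit with 50 bp on either side, on the plus strand of dm6. Capitals mark 3 kinds of word, in either orientation: the E-box CANNTG, to which factors of Hand's class bind, the GATA word NGATAN, with A or T before and A or G after, and the forkhead word NTAAANA, with A or G first and C or T before the last A. Adjoining words can share letters.
hb, chr3R:8694224-8694324: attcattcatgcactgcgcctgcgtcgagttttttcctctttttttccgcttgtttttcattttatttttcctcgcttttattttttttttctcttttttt
bowl, chr2L:3771417-3771517: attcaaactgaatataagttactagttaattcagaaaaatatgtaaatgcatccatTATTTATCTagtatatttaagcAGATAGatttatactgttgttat
Abd-B, chr3R:16958280-16958380: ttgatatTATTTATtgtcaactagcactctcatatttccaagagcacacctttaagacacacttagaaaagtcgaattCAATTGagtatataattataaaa
Antp, strongest, chr3R:6912474-6912574: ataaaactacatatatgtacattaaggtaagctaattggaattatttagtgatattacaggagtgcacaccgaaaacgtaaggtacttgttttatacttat
Antp, next strongest, chr3R:6903458-6903558: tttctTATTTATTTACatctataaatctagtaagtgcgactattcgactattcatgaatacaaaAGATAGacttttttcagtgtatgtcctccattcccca
Between Ubx and abd-A, chr3R:16794348-16794448: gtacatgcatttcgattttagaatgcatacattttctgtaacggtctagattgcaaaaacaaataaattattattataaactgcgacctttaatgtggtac

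The windows differ in make-up. The hb window had 82.2% C or T on the plus strand, in long runs of T, and held none of the 3 words. The bowl window held 2 GATA words and 1 forkhead word, and 78.2% of its bases were A or T. The Abd-B window held 1 E-box, CAATTG, and 1 forkhead word. Of the 9 windows at the genes' thresholded summits, 1 held an E-box, against 34.7% of all 3310 thresholded windows. Thresholded peaks between Hox genes are not among the 9. The window of the one between Dfd and Scr, not shown, held 2 E-boxes, CACGTG and CATATG, and that between Ubx and abd-A held none. The E-box form CATCTG, to which mammalian Hand factors bind with E-protein partners, was in 0 of 9 windows and in 2.66% of all. GATA words were in 4 of 9 windows against 22.0% of all, and forkhead words likewise in 4 of 9 against 23.8%. The Mef2 word was in 2 of 9 against 6.86%, and GAGAG, the word of the GAGA factor that often sits in Polycomb elements, in 1 of 9 against 13.9%. TAAT, the core word of Hox and other homeodomain factors, was in 7 of 9 against 72.4%. Such words overlap one another where sequences are rich in A and T, and the median window had 72.3% A or T at the genes' summits and 66.3% at all thresholded summits. With 9 windows these counts describe the peaks, and no difference was tested.

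Among the gap genes, hb, which codes for the zinc-finger factor Hunchback, had the strongest peak of the whole set. It lay at chr3R:8694170-8694404 with signal 344 and rank 290 of 3310 in the thresholded list. Its summit was 326 bp downstream of the inner of the gene's 2 annotated start sites, inside the gene body and outside its exons. No other annotated gene overlapped the summit. Replicate 2 had signal 129.8 there (rank 264 of 30000) and replicate 3 had 206 (rank 353), so the peak stood near the top of both lists.

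The odd family gene bowl had the most thresholded summits for its length, with 4 in a gene of 12.4 kb on arm 2L. The odd family codes for related zinc-finger factors of segmentation, leg joints and gut. The strongest bowl peak, at chr2L:3771417-3771573 with signal 311 and rank 355, had its summit 233 bp upstream of a bowl start site. Replicate 2 gave it signal 87.8 (rank 575) and replicate 3 gave it 227 (rank 280). The other 3 summits were intronic, with signals 139.8, 139.9 and 101. Replicate 2 had no summit within 100 bp of the one with signal 139.9, while replicate 3 had one of signal 92.7 (rank 1526) there.

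The other odd family genes had no thresholded summit. In odd, sob and drm, which lie together on 2L, no summit of the pooled list, of replicate 2 or of replicate 3 fell in the gene or within 2 kb. Their nearest thresholded summits were 22.2 kb, 48.2 kb and 60.8 kb away. The stretch from drm to odd spans 67.5 kb and did hold 11 pooled summits (16.3 per 100 kb), 13 in replicate 2 and 7 in replicate 3, all of them over 2 kb from the 3 genes. The gene bowl with 2 kb on each side held 7 pooled summits in 16.4 kb (42.6 per 100 kb).

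Among the Hox genes, Abd-B, which specifies the posterior abdomen, had 1 thresholded summit. The peak lay at chr3R:16958112-16958547 with signal 199 and rank 860, in an intron 1951 bp downstream of the nearest of its start sites. Replicate 2 ranked it higher, with signal 95.8 (rank 477), than replicate 3, with 103 (rank 1299). Here too no other annotated gene overlapped the summit.

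Antp, which specifies the middle thorax, had 3 thresholded summits within 10 kb of each other in its 103 kb. The strongest, at chr3R:6912306-6912741, had signal 142 and rank 1537, and lay 20.3 kb downstream of the nearest Antp start site. A second peak of signal 117 (rank 2168) had its summit 202 bp away, nearer to that start site (20.1 kb), and the 2 peaks overlapped. Replicate 2 had a summit within 100 bp of both, with signals 52.2 (rank 1644) and 38.1 (rank 3154). Replicate 3 had one beside the weaker of the pair, of signal 88.7 (rank 1655), and none within 100 bp of the stronger. The remaining peak, with signal 121, was seen in both, with 47.6 in replicate 2 (rank 2004) and 74.3 in replicate 3 (rank 2292), and its summit also lay in the non-coding gene lncRNA:CR43252. All 3 summits also lay inside CG46458, a protein-coding gene annotated across this stretch, so they cannot be assigned to Antp alone.

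**Figure D1:**
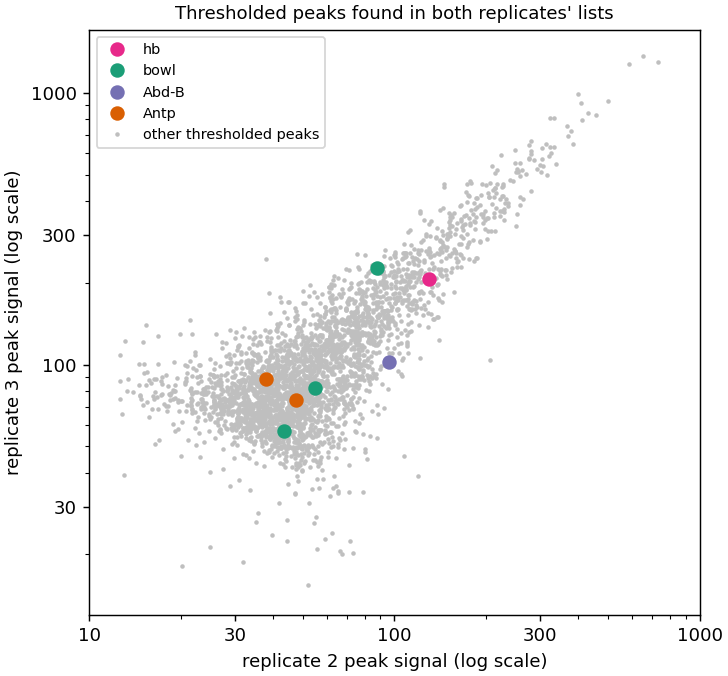
Peak signal in replicate 2 (x axis, log scale) and replicate 3 (y axis, log scale) for the 3015 thresholded peaks that each replicate also listed, with summits at most 100 bp away. Coloured points are the 7 such peaks of hb, bowl, Abd-B and Antp, and grey points are all others; the coloured points lie inside the grey cloud, with hb and the strongest bowl peak in its upper part.

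The peaks at these genes were of ordinary strength for the list. Their 9 signals ran between 101 and 344 with a median of 139.9, against a median of 135.8 over all 3310 peaks, whose highest was 2061. Of the 9 summits, 7 were in introns and 2 within 500 bp of a start site. Over all thresholded summits 35.3% were in introns and 49.6% within 500 bp of a start site. Both replicates had a summit within 100 bp of 7 of the 9, and of 3015 of all 3310. Such presence is partly fixed in advance, since the list was made by comparing the replicates. As a description of 2 lists not scaled to each other, at these 7 the ratio of replicate 3 to replicate 2 signal had a median of 1.56, within 1.07 to 2.58, and over all 3015 peaks seen in both it had a median of 1.83.

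Gene length matters to such counts, since a long gene offers more room for a summit. Of the 15 genes over 10 kb, 3 had a thresholded summit, against 50% of all genes of that length. Of the 15 genes of 2 to 10 kb, 1 had one, against 27.6%. None of the 5 under 2 kb had one, against 16.6%. In gene bodies alone the counts were the same 3, 1 and 0, against 38.1%, 10.1% and 1.92% of all genes in these classes. On these small counts the share with the margin was below that of all genes in each length class. In gene bodies it was below it among genes over 10 kb. There the 1 of 15 genes of 2 to 10 kb (6.67%) stood near 10.1%. The 5 genes under 2 kb are too few to show a share below 1.92%. Over all lengths together the share was lower with the margin and not in gene bodies. Each replicate taken alone gave a like picture at the same list length. Among the strongest 3310 peaks of replicate 2, summits fell at 4 of the 35 genes, against 24.5% of all genes. Among those of replicate 3 they fell at 5, against 26.3%, the fifth being bcd.

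**Figure D2:**
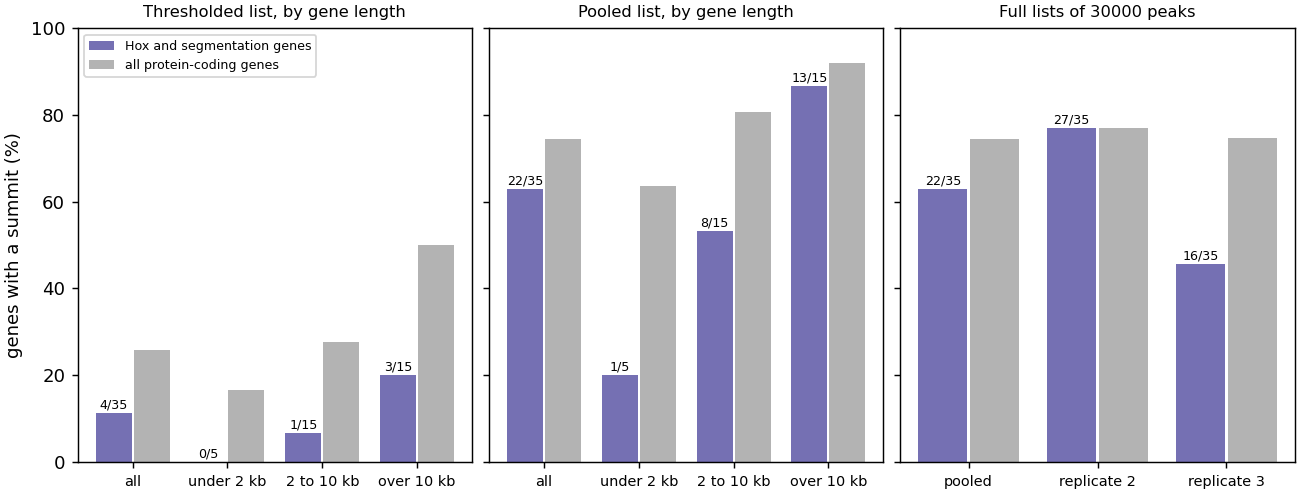
Share of genes with a summit in the gene or within 2 kb (y axis, percent), for Hox and segmentation genes (violet, with counts above the bars) and all protein-coding genes (grey). With this 2 kb margin the violet bar is lower in every length class of the thresholded and pooled lists, while in the right panel it stands level with the grey bar for replicate 2 (27 of 35) and below it for replicate 3 (16 of 35).

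Weaker peaks, from the full lists of 30000, set the replicates apart. The pooled list had a summit at 22 of the 35 genes (62.9%), against 74.4% of all genes. Replicate 2 had one at 27 (77.1%), against 76.9% of all genes, so its share over all lengths together was level with theirs. These shares are not matched for length: 15 of the 35 genes are over 10 kb, against 1977 of all 13945. The single replicates' full lists were not split by length. Replicate 3 had one at 16 (45.7%), against 74.6%. All 16 genes with a replicate 3 summit also had one in replicate 2. Another 11 genes had summits in replicate 2 only, namely Scr, kni, knrl, tll, hkb, ems, ftz, prd, en, gsb and gsb-n. None had one in replicate 3 only, and eve was listed in the pooled list alone. Among all genes 9.67% had summits in replicate 2 only and 7.36% in replicate 3 only. The tagged gene Hand had 4 summits in replicate 3, the pooled list's strongest there having signal 234, and 0 in replicate 2. Summits at Hand, or their absence, neither check the labels nor show which library is better. Once weak peaks are counted, over all lengths together, the lower share of the pooled list was seen in the library labelled replicate 3. It was not seen in that labelled replicate 2. By length, pooled summits were at 13 of the 15 longest genes against 92.1% of all such genes, at 8 of the 15 of middle length against 80.8%, and at 1 of the 5 shortest against 63.6%.

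In gene bodies alone these shares turned or narrowed. The pooled list had a summit in 18 of the 35 gene bodies (51.4%), against 43.0% of all genes, so the direction was the opposite of that with the margin. Replicate 2 had one in 23 (65.7%), against 46.3%, and replicate 3 in 13 (37.1%), against 43.2%. By length, pooled summits were in 12 of the 15 longest gene bodies against 87.9% of all such genes, in 5 of the 15 of middle length against 53.6%, and in 1 of the 5 shortest against 20.5%. In gene bodies the pooled share was thus below that of all genes over 10 kb and of 2 to 10 kb. It was level with it under 2 kb, where 5 genes are few. The higher pooled share in gene bodies was seen only over all lengths together, where the genes are not matched for length.

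**Figure D3:**
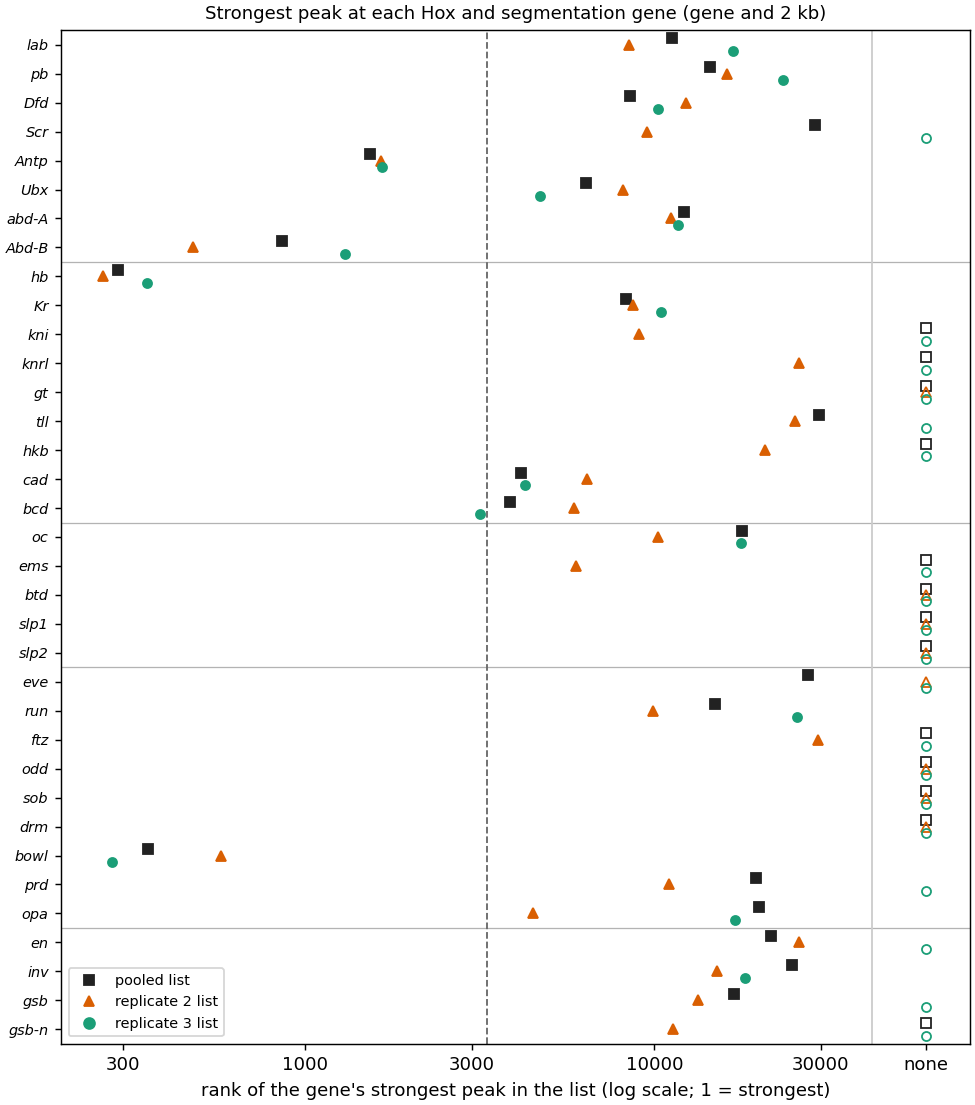
Rank of the strongest peak at each of the 35 genes (x axis, log scale, 1 is the strongest) in the pooled list and in each replicate, with genes grouped by role down the y axis and open symbols for no summit. Left of the dashed line at rank 3310 stand Antp, Abd-B, hb and bowl in all 3 lists and bcd in replicate 3 alone; the column of open symbols holds more replicate 3 than replicate 2 genes.

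Where a pooled summit was present, the strongest at each gene was also low. Its median signal was 40.6 over the 22 genes and 67.2 over the 10371 genes with a summit. The same medians were 21.96 and 26.5 in replicate 2, and 30.5 and 44.3 in replicate 3. A gene with more summits has a higher expected maximum, so these medians carry the same dependence on length as the counts.

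All 8 Hox genes had a pooled summit. They are the longest group, with a median of 30.6 kb. The 6 without a thresholded peak had their strongest pooled signal at Ubx (64.1, rank 6368), which specifies the posterior thorax and first abdominal segment. That summit lay 983 bp beyond the 3' end of Ubx and 22 bp from the start site of modSP, a neighbouring protease gene. Inside Ubx the strongest pooled summit had 46.4 (rank 10777). Summits of 39.3 (rank 13891) and 33.9 (rank 17568) lay on either side of the outermost Ubx start site. Dfd, which specifies posterior head segments, came next among the 6 with 54.0 (rank 8508), at 585 bp upstream of its start site. Neither replicate had a summit within 100 bp of it. Each had 1 elsewhere within 2 kb of the gene, with 19.8 in replicate 2 (rank 12300) and 30.7 in replicate 3 (rank 10216). The head gene lab had 45.2, abd-A, which specifies the middle abdomen, had 42.8, and pb, of the mouthparts, had 38.4. Scr, of the labial segment and first thoracic segment, had a single pooled summit of 24.9 at rank 28842 of 30000, 3 in replicate 2 and 0 in replicate 3.

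Of the 9 maternal and gap genes, 5 had a pooled summit. The anterior morphogen gene bcd had the strongest below the threshold, with signal 85.0 and rank 3858. It lay 1423 bp upstream of the bcd start site, with signal 61.9 in replicate 3 (rank 3158) and no replicate 2 summit within 100 bp. A second pooled summit close by had signal 63.7 (rank 6442). The replicate 2 summit of bcd, with 28.2 (rank 5875), lay within 100 bp of that second summit. The posterior homeodomain gene cad had 81.8 (rank 4144), in an intron, with 26.4 in replicate 2 (rank 6781) and 52.2 in replicate 3 (rank 4259). The zinc-finger gap gene Kr had 54.7 (rank 8309), 34 bp upstream of its start site, and 30.3 in replicate 3 (rank 10436). Replicate 2 had 3 summits at Kr, none within 100 bp of that one, the strongest with 23.3 (rank 8699). The terminal gene tll had 1 pooled summit, at rank 29681 of 30000. The related nuclear receptor genes kni and knrl and the terminal gene hkb had 0 pooled and 1 replicate 2 summit each, and the leucine-zipper gap gene gt had 0 in all 3 lists.

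Of the 5 head gap and sloppy paired genes, 1 had a pooled summit. This was oc, the head homeodomain gene also known as orthodenticle, with signal 33.7 and rank 17797, 186 bp from its start site. The head gene ems had a replicate 2 summit of signal 27.95 (rank 5982) and none elsewhere. The zinc-finger head gene btd and the forkhead genes slp1 and slp2 had 0 in all 3 lists. With gt, odd, sob and drm they make up the 7 genes with no listed summit at all, against 15.2% of all genes.

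Of the 9 pair-rule and odd family genes, 5 had a pooled summit. Apart from bowl, the strongest were at run, the founding Runt factor gene, with 37.6 (rank 14939), and prd, a Pax-type homeodomain gene, with 31.8 (rank 19550). The run summit was 345 bp from a start site and had 16.4 in replicate 3 (rank 25584). Replicate 2 had 1 summit at run, over 100 bp away, with 21.96 (rank 9920). The prd summit was in an exon and had 20.9 in replicate 2 alone (rank 11024). The zinc-finger gene opa had 31.3 (rank 19999), while its 1 replicate 2 summit, over 100 bp away, had 32.2 (rank 4488). The gene eve, which marks pericardial progenitors, had 25.6 at rank 27486 with neither replicate listing a summit there. The Hox-complex pair-rule gene ftz had 1 summit, in replicate 2, at rank 29415 of 30000.

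Of the 4 segment polarity genes, 3 had a pooled summit, each of them weak. The Pax genes gsb and gsb-n differed between lists. The gene gsb had 4 pooled, 4 replicate 2 and 0 replicate 3 summits, with a highest pooled signal of 34.8. Its neighbour gsb-n had 0, 5 and 0. The homeodomain gene en had a summit of signal 29.9 at 74 bp from its start site, with 13.6 in replicate 2 (rank 25981) and none in replicate 3, and its paralog inv had 27.4.

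The 2 Hox complexes were scanned from end to end, since much of their regulatory DNA lies between genes. The bithorax complex, 316 kb from Ubx to Abd-B, held 40 pooled summits, 40 in replicate 2 and 44 in replicate 3. That is 12.7, 12.7 and 13.9 per 100 kb, against 22.4 per 100 kb over the 6 arms in each list. Consecutive windows of the same length along the arms had a median of 75 pooled summits, with quartiles at 56.2 and 96.8. The Antennapedia complex, 338 kb from lab to Antp, held 59, 68 and 58 summits (17.5, 20.1 and 17.2 per 100 kb), where such windows had a median of 83 and quartiles at 57 and 103 in the pooled list. The Antp gene alone, with 27.2 pooled summits per 100 kb, stood above the arms' value. The rest of that complex had 13.2, with 17.5 in replicate 2 and 12.8 in replicate 3. The bithorax complex was thus below the lower quartile of windows in all 3 lists, and the Antennapedia complex close to it in the pooled list and replicate 3. The summits that were present were slightly weaker than the pooled list's own median, at a median pooled signal of 34.2 in the bithorax and 35.2 in the Antennapedia complex, against 37.5.

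**Figure D4:**
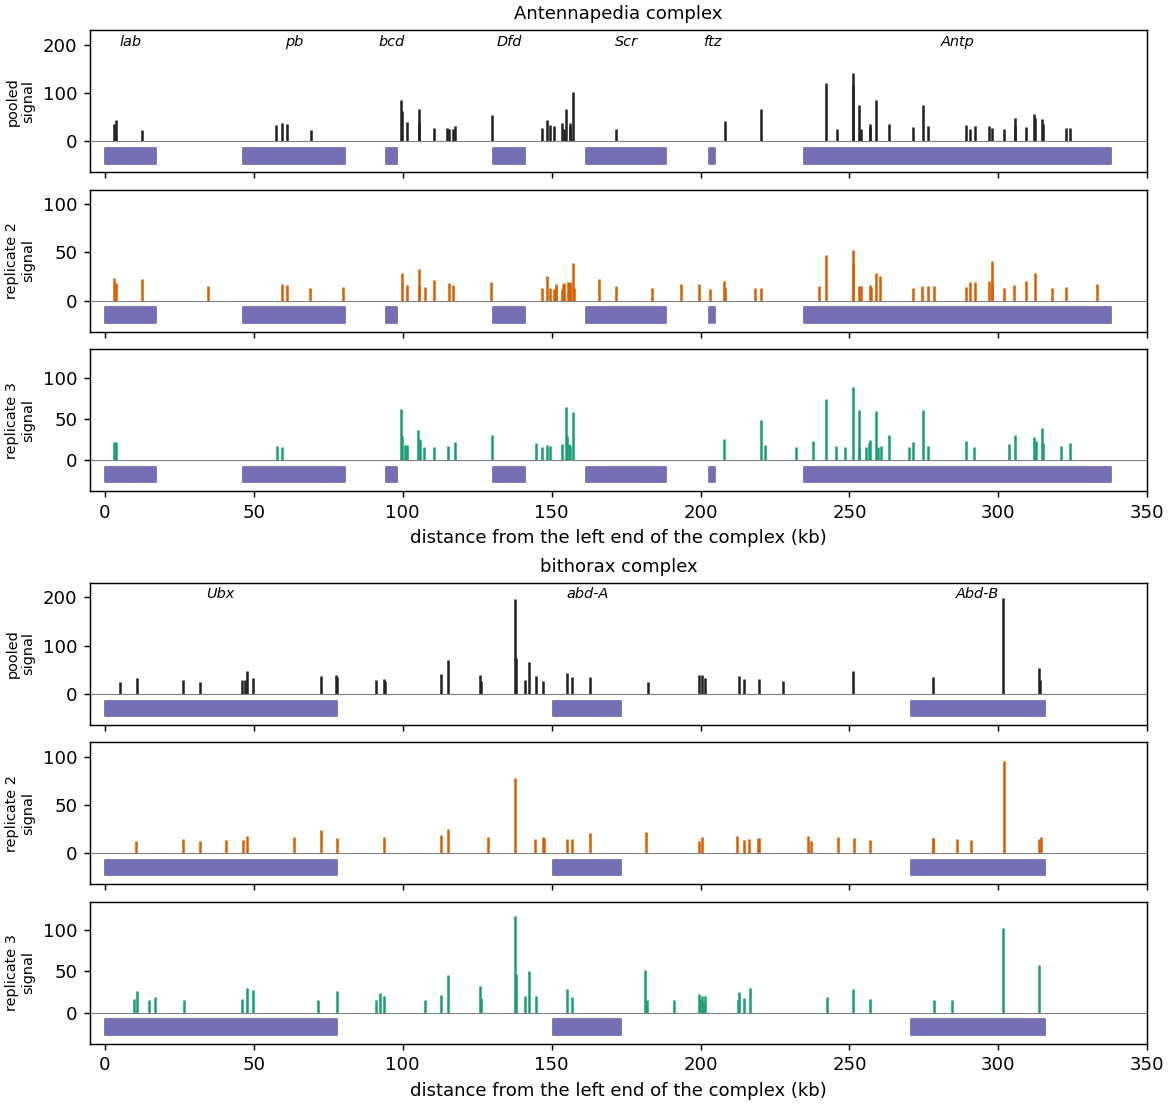
Peaks along the Antennapedia complex (upper 3 panels) and bithorax complex (lower 3 panels), as distance in kb from the left end of each complex (x axis) and peak signal in the pooled list and each replicate (y axis, own scale per list); violet bars are the named genes. The highest bars of each list stand in Abd-B and between Ubx and abd-A, and the stretch between lab and pb holds 1 bar, in replicate 2.

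Within the complexes, 2 thresholded peaks lay outside the genes by more than 2 kb. The first, in the 72.8 kb between Ubx and abd-A, was almost as strong as that of Abd-B, with signal 197 and rank 876 at chr3R:16794180-16794615. Replicate 2 gave it 78.2 (rank 728) and replicate 3 gave it 118 (rank 1027). It was 12.8 kb from abd-A, and the nearest protein-coding start site, 6087 bp away, was that of Glut3, a sugar transporter gene within the complex. The second, between Dfd and Scr, had signal 103 and rank 2701 at chr3R:6818526-6818961, with 38.9 in replicate 2 (rank 3041) and 58.6 in replicate 3 (rank 3475). It was 4.38 kb beyond the end of Scr. The 20.7 kb between Dfd and Scr held 10 pooled summits, 14 in replicate 2 and 10 in replicate 3, while the Dfd gene on one side held 0 in each list. The Scr gene on the other side held 1 pooled summit, 3 in replicate 2 and 0 in replicate 3, and the 14.3 kb beyond it, up to ftz, held 0, 2 and 0. The 32.4 kb between bcd and Dfd held 11, and the 29.2 kb between lab and pb held 0 pooled, 1 replicate 2 and 0 replicate 3 summits. The longest stretch with no pooled summit ran for 45.1 kb in the Antennapedia complex, over the 5' part of lab, that gap and the 3' part of pb. In the bithorax complex it ran for 26.8 kb, over the end of the space between abd-A and Abd-B and the 3' end of Abd-B.

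Stretches without any listed summit were also wide at other loci. Measured around each gene's outermost start site, the distance between the flanking pooled summits had a median of 18.3 kb over the 35 genes and 6.08 kb over all genes. It was above 20 kb at 15 of 35 genes (42.9%), against 17.6% of all genes. In replicate 2 it was above 20 kb at 10 genes (28.6%), against 14.4%, and in replicate 3 at 19 (54.3%), against 18.3%. The direction was the same in both replicates. The widest pooled stretches were those of knrl (93.7 kb) and kni (76.8 kb), which lie on arm 3L with 2 pooled summits in the 98.2 kb from one gene to the other. Then came ems with 53.0 kb, drm with 48.1 kb and gt with 47.3 kb. The engrailed locus, 53.7 kb from inv to en, held 3 pooled summits, 6 in replicate 2 and 3 in replicate 3. The narrowest pooled stretches were 0.229 kb at Ubx, 0.613 kb at gsb and 1.94 kb at bowl. Replicates 2 and 3 gave 15.8 and 6.35 kb at Ubx, 0.611 and 17.9 kb at gsb, and 1.73 and 1.74 kb at bowl. Some of the genes are neighbours and share a stretch, so the 35 values come from 33 separate pooled stretches.

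**Figure D5:**
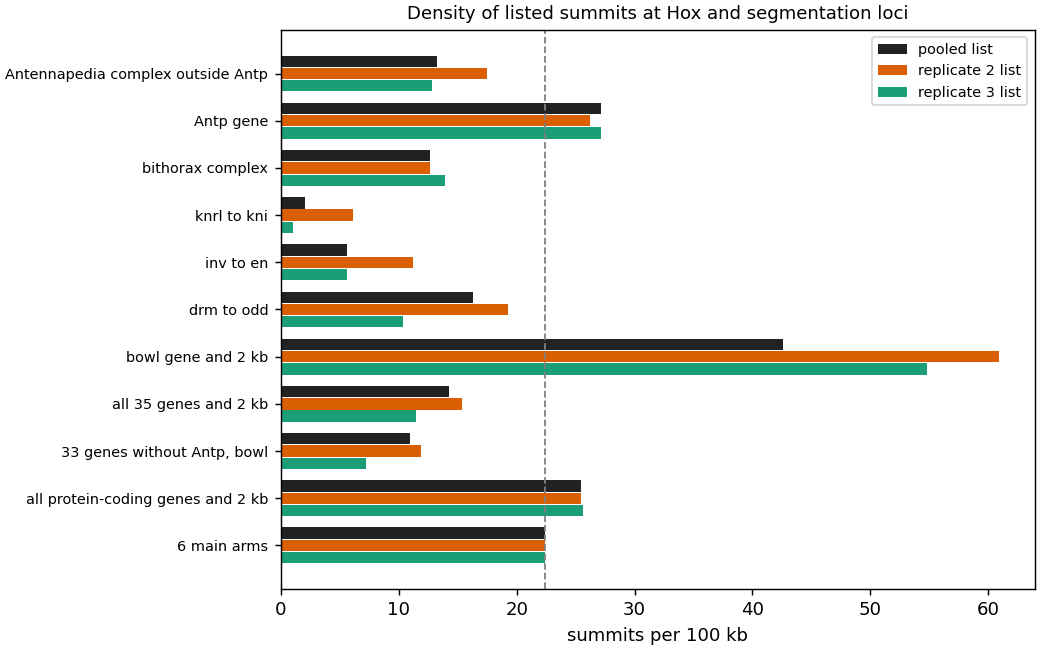
Summits per 100 kb (x axis) in the pooled list and each replicate for loci of the Hox and segmentation genes, for all of them together, for all protein-coding genes and for the 6 main arms; the dashed line is the arms' value of 22.4. Of the loci drawn, the Antp gene and bowl stand right of the line in all 3 lists, and knrl to kni has the lowest bars. The bars without Antp and bowl leave these genes out after their values were seen.

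Summed over the 35 genes with 2 kb on each side, 679 kb in all, there were 97 pooled summits (14.3 per 100 kb), 104 in replicate 2 (15.3) and 78 in replicate 3 (11.5). The 8 Hox genes, the longest group, held 60, 60 and 53 of these, so long genes weigh most in the sums. All protein-coding genes with the same margin had 25.5, 25.4 and 25.6 per 100 kb. Without Antp and bowl the remaining 33 genes had 11.0, 11.9 and 7.20 per 100 kb. Both were left out after their high values were seen, so a lower density was bound to follow. In gene bodies alone the 35 genes had 14.1, 16.3 and 11.5 summits per 100 kb, against 24.0, 24.5 and 24.0 for all protein-coding genes. Per unit of length, then, with or without the margin, both replicates listed fewer summits at these genes than over all genes, although the share of them with a replicate 2 summit was not lower.

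Other genes of the anterior-posterior system were counted in the same way, from lists drawn up for the comparison. Of 7 Hox cofactors and partners, 2 had a thresholded summit (28.6%), led by hth, which codes for the cofactor Homothorax (signal 176), and cnc, a head selector gene (151). All 7 had a pooled summit, where 74.4% of all genes and 62.9% of the Hox and segmentation genes had one. Of 16 genes of segment polarity signalling through Wingless and Hedgehog, 7 had one (43.8%), led by the kinase gene sgg (640.1) and the Wingless antagonist gene nkd (240.2), and all 16 had a pooled summit. Of 14 maternal and terminal genes, 6 had one (42.9%), led by the corepressor gene gro (278) and by swa (250.2), whose peak was nearer to the start site of Marf, and 12 (85.7%) had a pooled summit. Of 26 other homeodomain genes, 4 had one (15.4%), led by NK7.1 (287) and the limb gene Dll (243), and 15 (57.7%) had a pooled summit. The thresholded shares stand beside 11.4% for the Hox and segmentation genes and 25.7% for all genes. The lists differ in gene length, with medians of 8.42, 10.9, 6.15 and 9.23 kb in that order, against 6.65 kb for the 35 genes, and the differences between them were not tested.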

How the data were processed

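The deposited lists, per the sample file listing, are narrowPeak files on dm6: one for each replicate and a pooled one, each made against a shared control alignment, and a thresholded one from a reproducibility (IDR) comparison of them. The signal of a deposited peak is what the authors' caller wrote, not rescaled here. The authors' q-value, as −log10, was not used. For the aligner, peak caller and IDR threshold the sources used here give no name or value. Depth is unknown too, and peaks carry no error. The dm3 lists were not used.

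Summits, counted from 1, were assigned to genes annotated as protein-coding in Ensembl release 115 (6 main arms), in the gene or within 2 kb, with Python 3.11.15, numpy 2.4.6 and matplotlib 3.10.9. Summits within 100 bp were taken as the same. Sequence came from the RefSeq genome of the same assembly. Assignment was checked on simulated summits. The older symbol nos was read as nanos. The genes named are all 35, with every thresholded peak, the strongest weaker ones in each role group, the genes with the nearest start site, and the leading 2 of each related list. The genes and lists were chosen with earlier results of these data known. Counts in gene bodies by length class and per 100 kb were added after seeing the data.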

Additional observations from a re-analysis of the deposited data

How the results depend on the processing

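With 2 kb, 4 of 35 genes (11.4%) had a thresholded summit, against 25.7% of all. In gene bodies alone it was 4 against 10.2%, so the lower share over all lengths together did not hold there. By length class it was 3 of 15 genes over 10 kb against 38.1%. It was 1 of 15 against 10.1% at 2 to 10 kb, and 0 of 5 against 1.92% under 2 kb. It was 5 (14.3%) against 16.0% by nearest start site, 4 against 15.4% in the stronger 1655 peaks, 6 (17.1%) against 37.3% within 5 kb, and 4 to 5 against 24.5% and 26.3% with single replicates. Within 10 kb it was 9 (25.7%; Scr, Ubx, cad, btd and gsb-n joining), against 51.1%. A pooled summit was at 22 (62.9%), against 74.4% of all. In gene bodies it was 18 (51.4%) against 43.0%, the opposite direction over all lengths together. Within each length class the gene-body share was level with that of all genes or below it. Within 5 kb the count of genes with a pooled summit was 28 against 86.7%. With single replicates it was 16 to 27 against 74.6% and 76.9%, and in the strongest 10000 pooled peaks 9 against 48.8%. Summits per 100 kb were 17.2 to 20.1 with single replicates in the Antennapedia complex and 12.7 to 13.9 in the bithorax complex. Among the strongest 10000 they were 4.14 and 1.90, against 7.47 over the arms, and in the thresholded list 1.18 and 0.634, against 2.47. The median signal of 139.9 was 139.9 in gene bodies and 139.8 within 5 kb. The share of A or T at summits, 72.3%, was 68.6% with 25 bp on each side, against 66.7% for all, and 72.6% with 100 bp. Within 250 bp, 9 of 9 summits were listed in both replicates, which is partly fixed by how the thresholded list was made. No paired analysis was possible because there is 1 group. With 2 replicates and unknown depth, weak peaks cannot be told apart from background in these lists.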
